A study of Mus musculus with 42 samples.

Results

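The 10 genes described here, Plagl1, Peg3, Usp29, Peg10, Sgce, Mest, Nnat, Snrpn, Zrsr1 and Kcnq1ot1, are imprinted genes that mouse tissues transcribe mainly from the paternal chromosome. They were chosen by name and not by their values, and all 10 are among the 15737 genes with a symbol listed once in the RNA-seq table. An imprinted gene carries DNA methylation that was set in 1 parent's germ cells, and after fertilization the zinc finger protein ZFP57, with its partner TRIM28, keeps that methylation while most of the genome loses it. The unmethylated paternal copy remains transcribable. For most of these genes the mark comes from the oocyte, so their RNA in a cleavage-stage embryo can be left over from the oocyte or newly made from the paternal copy. The table gives 1 value per gene with no split by allele, so the parent of origin could not be read here.

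RNA was sequenced from ICR mouse embryos in 9 groups. Untreated wild-type embryos were taken at the early 2-cell stage (34 h after hCG), the late 2-cell stage (48 h) and the 4-cell stage (58 h). Other embryos were given 0.01 µM FK866, an inhibitor of the NAD+ salvage enzyme NAMPT, or FK866 with 10 µM NMN, the product of that enzyme. These were taken at the late 2-cell and 4-cell stages, and the paper describes FK866 treatment of zygotes. Late 2-cell embryos were further treated with 10 nM TSA, an inhibitor of histone deacetylases, or had the NAD+-dependent deacetylase Sirt1 knocked down by siRNA, Trim21 mRNA and SIRT1 antibody injected into the zygote. The late 2-cell control is labelled untreated, and an injected control of scrambled siRNA and Trim21 mRNA, named in the methods, is not among the labelled groups. DMSO was the solvent control of the inhibitors per the methods. Each library held 3 embryos, and 2 libraries per group were planned. The libraries were not strand-specific, so reads shared by overlapping genes on opposite strands could not be told apart.

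The deposited values are FPKM (fragments per kilobase of exon, scaled to library size), 1 column per group. A column with 2 libraries is their sum, and multiplying by exon length returned whole reads for each library. This separated 16 libraries of 3169677 to 10003481 reads, 2 in each of 7 columns and 1 each under the headers 4-cell FK866 and 4-cell FK866+NMN. A and B name the libraries of a column by falling size. A gene at 0 can be at most near 3 reads, which for Plagl1 is 0.0384 to 0.121 FPKM depending on the library. Such floors cover counting error only, since reads of amplified cDNA are not independent molecules. In 5 of 9 columns the group in the header was not the one in the published gene tables. The values listed there for 4-cell control, 4-cell FK866 and 4-cell FK866+NMN were equal for 84 of 84 genes to the columns headed late 2-cell TSA, late 2-cell Sirt1 and 4-cell control. In the column headed with the group's own name, 4, 0 and 3 genes were equal. By the direction of listed changes, TSA was best matched by the column headed 4-cell FK866 (1203 of 1203 genes) and Sirt1 by the column headed 4-cell FK866+NMN (773 of 821). The Sirt1 gene itself was at 86.6 and 66.2 FPKM in the late 2-cell control libraries, at 32.4 and 73.1 in those of the column headed Sirt1, and at 11.3 in the column headed 4-cell FK866+NMN. In the column headed Sirt1 library A was below both controls and library B was not. The gene was also low in the column headed 4-cell FK866 (7.61) and in early 2-cell (13.5 and 6.18), so a low level is not particular to 1 column. Results are therefore given by header and, where they differ, by the tables. The early 2-cell column and the late 2-cell columns for control, FK866 and FK866+NMN are the same in both readings. Oocyte and 2-cell embryo markers were present in all libraries, with sums of 30.2 to 308 and 111 to 842 FPKM. Cumulus or granulosa markers summed to 0 to 8.39 FPKM, highest in the column headed 4-cell FK866, and fibroblast markers to 0.0422 to 10.1, highest in the 2 single-library columns.

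The start regions of 3 members are shown because they carry features that bear on imprinting. RefSeq windows of 300 bases (250 before to 50 after a start, GRCm38.p6) were found for 8 of the 10 members, and none was matched for Peg10 or Sgce. The letters TGCCGC, which ZFP57 binds when methylated, or GCGGCA on the other strand, were present in 5 of the 13 windows of members (38.5%), against 11.6% of 32851 windows of all genes. Of these 5 windows 2 are of Mest, overlap almost wholly and hold the same matches. The 4 members with a match were Plagl1, Mest, Nnat and Snrpn, and the windows of Peg3, Usp29, Zrsr1 and Kcnq1ot1 had none. Capitals mark the matches in the windows of Plagl1 (chr10:13090582-13090881, plus strand), with 26 CpG sites, and Mest (chr6:30737800-30738099, plus strand), with 17. The median over all windows was 7 CpG sites. The matched letters hold a CpG themselves, and the share was not compared with that of windows of like CpG number. In the window of Usp29 (chr7:6730333-6730632, plus strand) capitals mark the 163 bases between the RefSeq starts of Usp29 and of Peg3, which is read from the opposite strand.
Plagl1: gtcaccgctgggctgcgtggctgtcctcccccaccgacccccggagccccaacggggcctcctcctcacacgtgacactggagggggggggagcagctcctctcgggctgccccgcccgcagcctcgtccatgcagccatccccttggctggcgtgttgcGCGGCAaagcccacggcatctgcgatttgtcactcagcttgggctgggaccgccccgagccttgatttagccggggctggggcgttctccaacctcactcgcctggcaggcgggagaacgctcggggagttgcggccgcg
Mest: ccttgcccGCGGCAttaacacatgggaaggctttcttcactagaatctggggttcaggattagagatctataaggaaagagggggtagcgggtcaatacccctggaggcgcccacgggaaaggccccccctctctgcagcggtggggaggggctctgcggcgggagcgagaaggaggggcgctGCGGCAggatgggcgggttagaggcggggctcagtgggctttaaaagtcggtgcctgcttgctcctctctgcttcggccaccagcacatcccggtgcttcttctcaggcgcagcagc
Usp29: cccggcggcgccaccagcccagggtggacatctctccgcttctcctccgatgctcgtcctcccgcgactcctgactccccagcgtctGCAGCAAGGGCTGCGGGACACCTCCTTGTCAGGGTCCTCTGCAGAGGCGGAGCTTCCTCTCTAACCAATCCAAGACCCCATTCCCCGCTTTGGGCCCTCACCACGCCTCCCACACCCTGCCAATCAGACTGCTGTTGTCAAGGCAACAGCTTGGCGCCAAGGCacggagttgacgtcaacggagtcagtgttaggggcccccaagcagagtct

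The members ranged from a gene with reads in every library to one read in a single library. Snrpn was the one member above 0 in all 16 libraries, and the other 9 were at 0 in at least 1. The number of members above 0 ran from 3 of 10 in library A of the column headed late 2-cell TSA to 9 of 10 in early 2-cell library A. Early 2-cell libraries had 9 and 8 members above 0, and late 2-cell control libraries 4 and 5. By mean FPKM per library over the columns, the order was Snrpn (12.8), Mest (8.28), Zrsr1 (6.01), Usp29 (3.73), Nnat (1.37), Plagl1 (1.08), Sgce (0.734), Peg3 (0.492), Peg10 (0.0969) and Kcnq1ot1 (0.0486). Neighbours in this order were not separated by the spread between libraries: the ranges of Snrpn and Mest, of Mest and Zrsr1, and of each later pair overlapped.

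**Figure D1:**
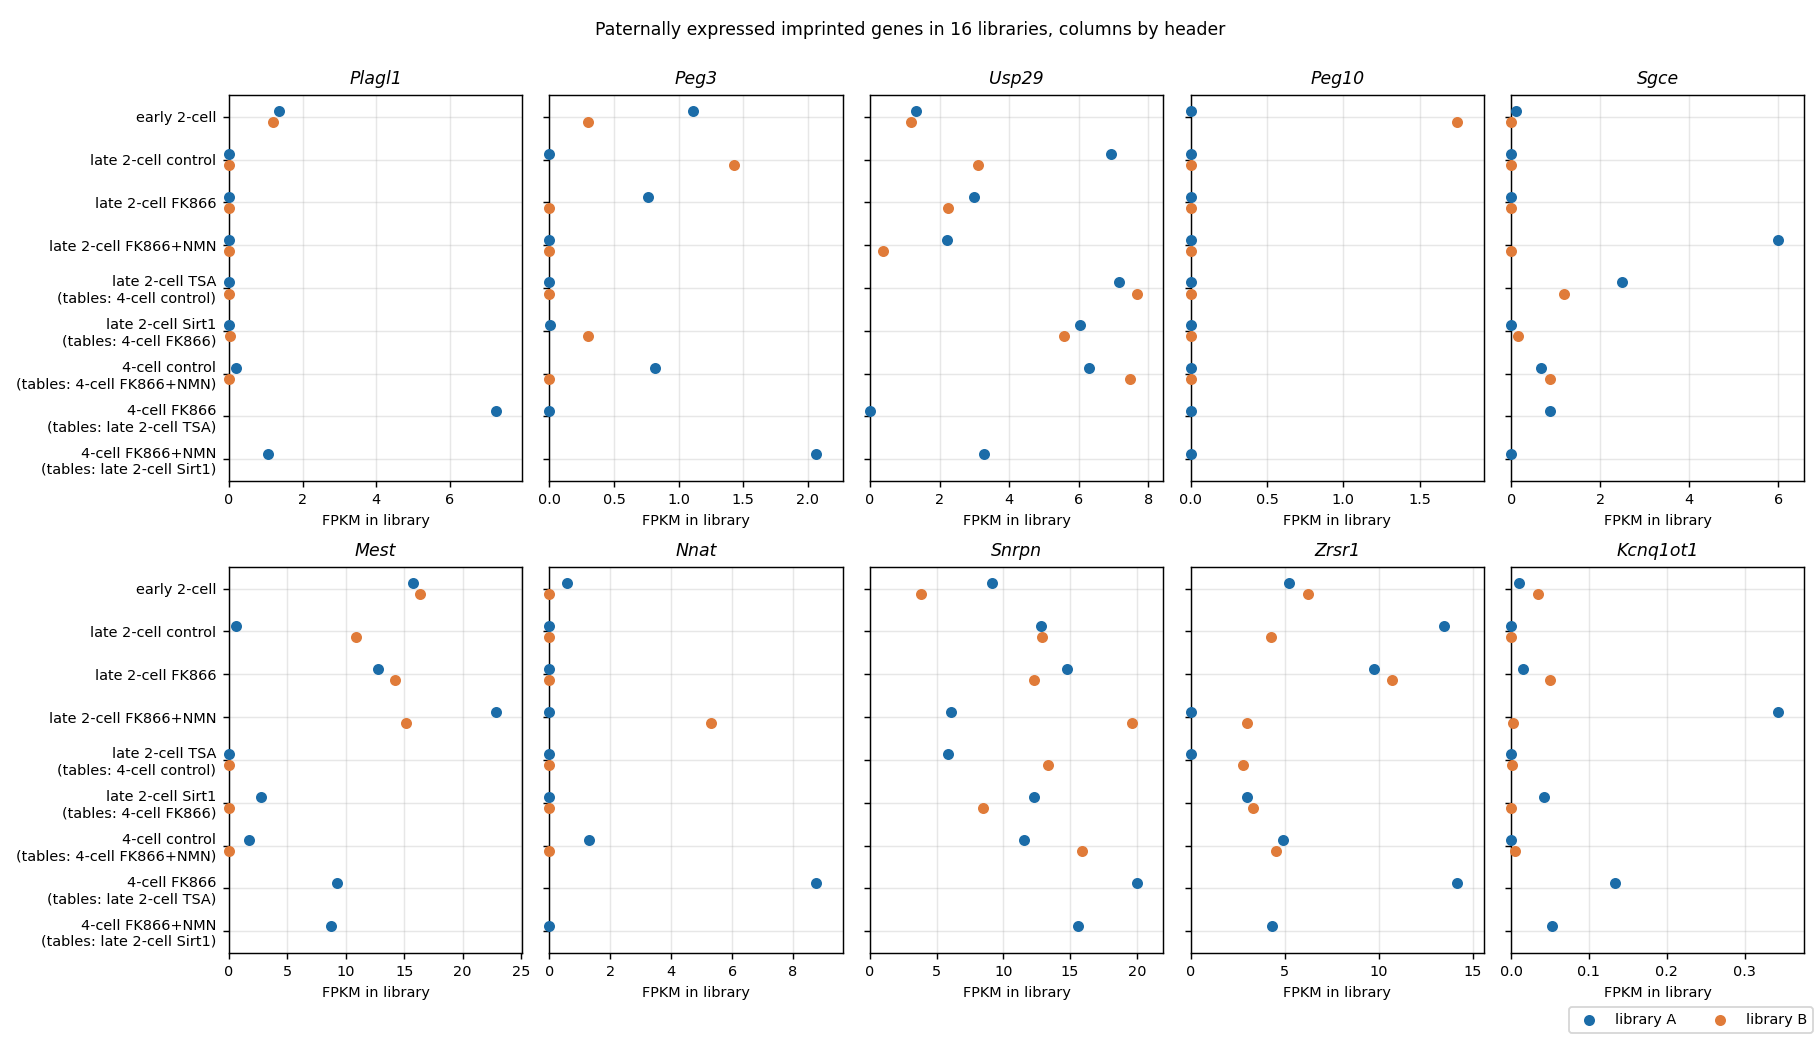
FPKM in each library (horizontal axis, linear, 1 scale per gene) of the 10 imprinted genes by column (vertical axis, named by header and, where different, by the published tables); blue points are library A and orange points library B of a column, and those headed 4-cell FK866 or 4-cell FK866+NMN have 1 library. Snrpn is above 0 in every library, Peg10 in 1 early 2-cell library, and Plagl1 is highest, at 7.24 FPKM, in the column headed 4-cell FK866.

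Among the members that code for DNA-binding proteins, Plagl1 (chr10:13060504-13131694, plus strand, GRCm38), a zinc finger transcription factor linked to growth, had the plainest pattern. It was at 1.36 and 1.18 FPKM (60 and 43 reads) in the early 2-cell libraries and at 0 in both libraries of late 2-cell control, FK866, FK866+NMN and the column headed TSA. In the column headed Sirt1 it had 0 and 1 reads, and in the column headed 4-cell control 8 and 0 reads (0.187 and 0 FPKM). It was at 7.24 FPKM (265 reads) in the column headed 4-cell FK866 and at 1.06 (57 reads) in the column headed 4-cell FK866+NMN. The early 2-cell libraries and these 2 single libraries therefore stood above the other 12, with no overlap.

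Peg3 (chr7:6703892-6730431, minus strand), a zinc finger protein known from placenta and maternal care, split libraries of the same group. It was at 1.11 and 0.301 FPKM in early 2-cell, 0 and 1.43 in late 2-cell control (0 and 81 reads), 0.762 and 0 in FK866 and 0 in both FK866+NMN libraries. By header it was at 0 and 0 in TSA, 0.00734 and 0.301 in Sirt1, 0.818 and 0 in 4-cell control, 0 in 4-cell FK866 and 2.06 in 4-cell FK866+NMN. The groups overlapped because 1 library was at 0 and the other was not in 3 of the 7 columns with 2 libraries. Peg3's values were whole reads for an exon length of 13616 bases, found from the values, and not for the 13324 of the annotation used here.

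Usp29 (chr7:6730578-6967219, plus strand), which codes for a deubiquitinase and starts 146 bases from Peg3 in the annotation, was read far more evenly. Its early 2-cell libraries were at 1.31 and 1.19 FPKM, late 2-cell control at 6.94 and 3.11, FK866 at 2.98 and 2.24, and FK866+NMN at 2.21 and 0.362. By header it was at 7.17 and 7.67 in TSA, 6.05 and 5.58 in Sirt1, and 6.31 and 7.47 in 4-cell control. It had no read in the column headed 4-cell FK866 and 3.29 FPKM in that headed 4-cell FK866+NMN. Both early 2-cell libraries lay below both late 2-cell controls, and the 6 libraries of the columns headed TSA, Sirt1 and 4-cell control lay within 5.58 to 7.67. By the tables, these 6 libraries are the 4-cell control, FK866 and FK866+NMN embryos. Usp29 exceeded Peg3 in 15 of 16 libraries, and both were at 0 in the remaining one. Usp29 shares 2582 exon bases (14.3% of its exons) with Zim3 on the other strand, which had reads in 3 libraries, at 0.163 to 1.96 FPKM.

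2 members act in RNA splicing. Snrpn (chr7:59982495-60140219, minus strand), a core protein of spliceosomal particles, lay between 3.79 and 20.0 FPKM over the 16 libraries, with a median of 12.5. Its lowest value was in early 2-cell library B (early 2-cell 9.12 and 3.79) and late 2-cell controls were at 12.8 and 12.9. FK866 libraries were at 14.8 and 12.3 and FK866+NMN libraries at 6.07 and 19.7, so treated libraries lay on both sides of the controls. Snrpn shares 216 exon bases with Snurf on its own strand and 589 with Gm38393, so its reads may be split among them.

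Zrsr1 (chr11:22972005-22976496, plus strand), a relative of the splicing factor U2AF that lies inside Commd1, was present in 14 libraries. It was at 5.25 and 6.23 FPKM in early 2-cell, 13.5 and 4.28 in late 2-cell control, 9.76 and 10.7 in FK866, and 0 and 2.996 in FK866+NMN. By header it was at 0 and 2.80 in TSA, 2.98 and 3.30 in Sirt1, 4.92 and 4.56 in 4-cell control, 14.2 in 4-cell FK866 and 4.35 in 4-cell FK866+NMN. FK866+NMN libraries lay below both controls and both FK866 libraries. Commd1 was at 0 and 0.0809 FPKM in the late 2-cell controls where Zrsr1 was at 13.5 and 4.28, and the exons of Zrsr1 share 412 bases (9.17%) with Commd1 on the other strand.

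Mest (chr6:30723547-30748465, plus strand), a hydrolase-like protein of mesoderm and fat, had the highest single value of all members. It was at 15.7 and 16.4 FPKM in early 2-cell, 0.622 and 10.9 in late 2-cell control, 12.7 and 14.2 in FK866, and 22.8 and 15.1 in FK866+NMN. By header it was at 0 and 0.0388 in TSA, 2.79 and 0 in Sirt1, 1.71 and 0 in 4-cell control, 9.26 in 4-cell FK866 and 8.77 in 4-cell FK866+NMN. Library A of late 2-cell control stood apart from library B, and every early 2-cell, FK866 and FK866+NMN library lay above both controls. Mest shares 912 exon bases (23.1%) with Copg2, which ends on the other strand. Copg2 was at 22.5 and 15.4 FPKM in the FK866+NMN libraries, at 6.50 and 4.31 in the late 2-cell controls and at 8.51 in the column headed 4-cell FK866.

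Sgce (chr6:4674350-4747207, minus strand), epsilon-sarcoglycan of the membrane, and Peg10 (chr6:4747306-4760517, plus strand), a gene derived from a retrotransposon and needed in placenta, start 98 bases apart. Sgce was at 0 in both libraries of late 2-cell control and of FK866, and at 5.99 and 0 FPKM (538 and 0 reads) in FK866+NMN. Early 2-cell libraries were at 0.117 and 0, and by header it was at 2.49 and 1.20 in TSA, 0 and 0.149 in Sirt1, 0.671 and 0.873 in 4-cell control, 0.865 in 4-cell FK866 and 0 in 4-cell FK866+NMN. 1 of the 2 FK866+NMN libraries thus made up the whole of that group's value. Peg10 was read in early 2-cell library B (1.74 FPKM, 54 reads) and in none of the other 15 libraries. No library had reads of both genes.

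Nnat (chr2:157560078-157562522, plus strand), a small membrane protein of brain and endocrine cells, was above 0 in 4 libraries. These were early 2-cell A (0.582 FPKM, 6 reads), FK866+NMN B (5.31, 52 reads), library A of the column headed 4-cell control (1.30, 13 reads) and the column headed 4-cell FK866 (8.76, 75 reads). Both late 2-cell controls and both FK866 libraries were at 0. Nnat lies within an intron of Blcap with no shared Blcap exon, and Blcap was at 0 in both FK866+NMN libraries and at 0.351 FPKM in the column headed 4-cell FK866.

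Kcnq1ot1 (chr7:143203458-143296549, minus strand), a long noncoding RNA that silences its neighbours in cis, was the lowest member. It did not pass 0.343 FPKM in any library and was at 0 in 5, including both late 2-cell controls. The highest value was in FK866+NMN library A (270 reads), where its partner on the other strand, Kcnq1, was at 0 in both libraries. Early 2-cell libraries had 5 and 15 reads of Kcnq1ot1, with Kcnq1 at 3.90 and 2.95 FPKM.

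Changes were tested with limma on log2(FPKM + 1) over all 16 libraries together, for the 9625 genes with a mean of at least 0.5 FPKM per library over the columns. A gene was called at a Benjamini-Hochberg adjusted p below 0.05. 7 members were fitted, and Peg3, Peg10 and Kcnq1ot1 were under the filter. Plagl1 and Nnat passed it only through the single library of the column headed 4-cell FK866, since the other 8 columns averaged 0.305 and 0.450 FPKM, and Sgce only through the late 2-cell FK866+NMN column (0.452 without it). Their values in comparisons with those columns, and counts over the 7, are therefore descriptions. Fold changes on this scale understate the change of low genes. Nothing in the sources used here says which animals a library came from, so p-values measure the spread between these libraries. A single-library column was taken to vary like the others, and the spread of Plagl1 rests largely on 10 libraries at 0.

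Between the early and the late 2-cell stage, Plagl1 fell and no other fitted member was called. Plagl1 was lower in late 2-cell control by a log2 fold change of -1.18 (SE 0.31, limma adjusted p = 0.0253), and the reads set it at least 35.7-fold lower, taking 3 reads over the group as the floor. In whole embryos, fewer cells with a transcript and less of it per cell cannot be told apart. This is 1 of 7 members lower and 0 higher, against 6.93% of all genes tested lower and 9.27% higher. Usp29 had a log2 fold change of 1.34 (SE 0.59), with both late libraries above both early ones, and an adjusted p of 0.156. Mest had -1.96 (SE 0.95, adjusted p = 0.195), and -3.39 without late 2-cell control library B, which leaves the control library at 0.622 FPKM. Snrpn had 0.99 (SE 0.63, adjusted p = 0.328). With libraries centred on their median, Plagl1 was at -1.29 and was not called (adjusted p = 0.199).

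FK866 at the late 2-cell stage left the fitted members without a call. limma called 0 of 7 members in either direction, 0 of 7 had an unadjusted p below 0.05, and 0.135% of all genes were higher and 0.0935% lower. Plagl1, Sgce and Nnat were at 0 in all 4 libraries of this comparison. Mest had a log2 fold change of 1.72 (SE 0.95, adjusted p = 0.615) with both treated libraries above both controls. Zrsr1 was at 0.36 (SE 0.83), Snrpn at 0.07 (SE 0.63) and Usp29 at -0.67 (SE 0.59). With 2 libraries a side, the absence of a call does not show that a member was unchanged. The late 2-cell control libraries differed by over 2-fold (FPKM + 1) in Mest and Zrsr1.

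Adding NMN to FK866 gave 0 calls among the 7 members, and 1 had an unadjusted p below 0.05. All genes were higher at 0.301% and lower at 1.95%, and with libraries centred on their median the split turned from 29 higher and 188 lower to 154 higher and 21 lower. Zrsr1 had a log2 fold change of -2.49 (SE 0.83, adjusted p = 0.152), with both FK866+NMN libraries below both FK866 libraries. Without FK866+NMN library B, where Zrsr1 had 72 reads, the difference was -3.49, from the 1 library left at 0 reads. Sgce (1.402, SE 0.71, adjusted p = 0.362) and Nnat (1.33, SE 0.73, adjusted p = 0.393) each rested on 1 of the 2 libraries. Sgce was at 2.80 without library B and Nnat at 2.66 without library A. In both cases the library left out was the one at 0 reads, so these values describe the 1 library left. Sgce also entered the fit only through this FK866+NMN column. The FK866+NMN libraries differed by over 2-fold in 5 of the 7 members, Usp29, Sgce, Nnat, Snrpn and Zrsr1, and in 44.0% of all genes fitted.

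Against the late 2-cell control, FK866+NMN again gave 0 of 7 members called, with 0.758% of all genes higher and 3.89% lower. Unadjusted p was below 0.05 for 3 members. Zrsr1 was at -2.13 (SE 0.83, adjusted p = 0.182), Usp29 at -1.45 (SE 0.59, adjusted p = 0.205) and Mest at 2.16 (SE 0.95, adjusted p = 0.247). For these 3 genes the treated libraries did not overlap the controls. Without FK866+NMN library B, Zrsr1 was at -3.13 and Sgce at 2.80, and without library A Nnat was at 2.66. Each of these values rests on the 1 FK866+NMN library left. With all libraries Nnat was at 1.33 (adjusted p = 0.334), and with libraries centred on their median at 2.66 (adjusted p = 0.0317). Centring also shifts libraries at 0 reads: it put the controls, which had no Nnat read, at -0.392. With libraries centred on their median, the calls over all genes went from 73 higher and 374 lower to 466 higher and 65 lower.

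**Figure D2:**
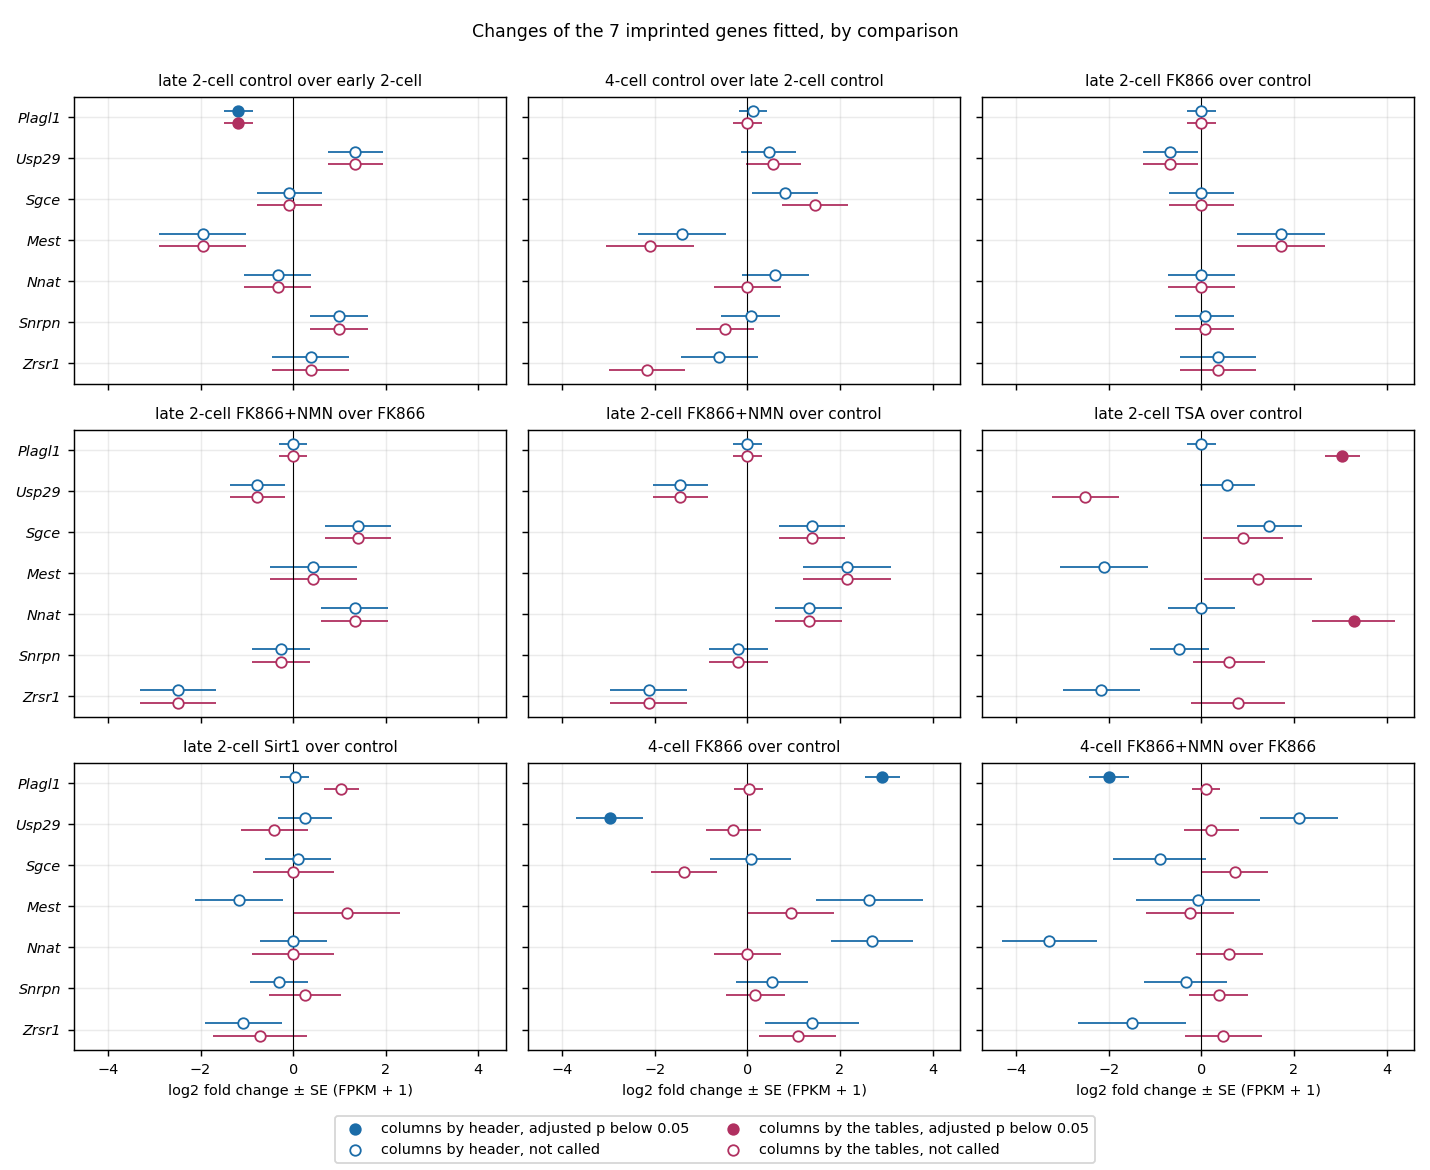
Log2 fold change of FPKM + 1 with its standard error (horizontal axis) for the 7 fitted imprinted genes (vertical axis) in 9 comparisons; blue points read the columns by header and red points by the published tables, and filled points have an adjusted p below 0.05. Filled points are Plagl1 between early and late 2-cell, Plagl1 and Usp29 in 4-cell FK866 and Plagl1 in 4-cell FK866+NMN by header, and Plagl1 and Nnat in TSA by the tables.

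The columns that the header and the tables name differently hold the other calls. Read by the tables, the single library at 7.24 FPKM of Plagl1 is the TSA embryos. Plagl1 in it was then higher than in the late 2-cell control by a log2 fold change of 3.04 (SE 0.38, adjusted p = 0.000754), at least 202-fold by reads. Nnat was higher by 3.29 (SE 0.89, adjusted p = 0.0482), at least 57.1-fold. These are 2 of 7 members higher and 0 lower, against 5.11% and 2.89% of all genes, but the library is the one through which both genes entered the fit. With no filter, the adjusted p of Plagl1 was 4.07e-05 and that of Nnat 0.0674, so Nnat was not called. The call of Nnat was lost when any 1 of 12 libraries was left out (adjusted p = 0.0622 to 0.132) and kept without FK866+NMN library A or B (0.00387 and 0.00326). Usp29, with 0 reads against 1052 in the 2 controls, was at -2.51 (SE 0.72, adjusted p = 0.0624). Without late 2-cell control library B it was at -2.99. Its call without FK866+NMN library A or B came with an unchanged difference, since neither library is in this comparison. Mest (1.22), Zrsr1 (0.80), Sgce (0.90) and Snrpn (0.60) had adjusted p-values of 0.623 to 0.746.

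Read by header, TSA gave 0 of 7 members called, with 4.6% of all genes higher and 9.05% lower. Zrsr1 was at -2.17 (SE 0.83, adjusted p = 0.121) and Mest at -2.11 (SE 0.95, adjusted p = 0.190), both with an unadjusted p below 0.05. Mest was at -3.54 without late 2-cell control library A, whose Mest level was 0.622 FPKM. Plagl1 was at 0 in all 4 libraries. Sgce, at 2.49 and 1.20 FPKM against 0 in both controls, was at 1.47 (adjusted p = 0.225). Its call without FK866+NMN library A or B came with an unchanged difference, since neither library is in this comparison. Thus the direction of Mest and Zrsr1 under TSA was the opposite in the 2 readings, and neither was called in either with all libraries. With libraries centred on their median, the calls over all genes by header went from 443 higher and 871 lower to 856 higher and 388 lower.

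Sirt1 knockdown gave 0 of 7 members called in both readings. By header, 3.8% of all genes were higher and 6.78% lower, and no member had an unadjusted p below 0.05, with Mest at -1.17 (SE 0.95) and Zrsr1 at -1.08 (SE 0.83). By the tables, 0.488% were higher and 0.0935% lower, and Plagl1 (57 reads against 0 in the controls) had a log2 fold change of 1.04 (SE 0.38, adjusted p = 0.386). Plagl1 was called without either of the early 2-cell libraries, which are not in this comparison, with an unchanged difference. With libraries centred on their median, the calls over all genes by header went from 366 higher and 653 lower to 445 higher and 287 lower.

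Between the late 2-cell and the 4-cell controls, limma called 0 of 7 members in either reading, and 0 by header and 2 by the tables had an unadjusted p below 0.05. By header, 2.7% of all genes were higher and 5.04% lower, and the members ran from -1.41 for Mest to 0.82 for Sgce, which went from 0 in both late 2-cell libraries to 39 and 43 reads. By the tables, 4.6% were higher and 9.05% lower. Sgce was then at 1.47 (SE 0.71, adjusted p = 0.225), with 181 and 83 reads against 0, and Mest and Zrsr1 at -2.11 and -2.17. The columns are those compared for TSA by header, so Mest was again at -3.54 without late 2-cell control library A. Sgce was again called only without FK866+NMN library A or B, which are not in this comparison. Usp29 was at 0.46 by header and 0.56 by the tables. Centring libraries on their median turned the calls over all genes by header from 260 higher and 485 lower to 199 higher and 180 lower.

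FK866 at the 4-cell stage gave calls by header that the tables' reading did not have. By header, Plagl1 was higher by a log2 fold change of 2.92 (SE 0.38, adjusted p = 0.000616), with 265 reads against 8 in the 2 controls. This is again the 1 library that brought Plagl1 into the fit, and with no filter its adjusted p was 5.08e-05. Usp29 was lower, with a log2 fold change of -2.98 (SE 0.72, adjusted p = 0.0157), with 0 reads against 1252, at least 193-fold lower. These are 1 of 7 members higher and 1 lower, against 13.6% and 8.77% of all genes. Nnat (2.69, SE 0.89, adjusted p = 0.0531) and Mest (2.64, SE 1.16, adjusted p = 0.129) were not called. Nnat, too, entered the fit only through this library. Without late 2-cell FK866+NMN library A or B, neither in this comparison, its difference was the same and its SE was 0.495 or 0.475. Usp29 was not called without library B of the column headed 4-cell control (adjusted p = 0.0597), and in a fit of the compared columns alone Plagl1 had an adjusted p of 0.05005 and Usp29 of 0.0575. With libraries centred on their median, Plagl1 was at 2.22 (adjusted p = 0.0622), and the calls over all genes went from 1305 higher and 844 lower to 456 higher and 1045 lower. By the tables, 0 of 7 members were called and none had an unadjusted p below 0.05, with 0.135% of all genes higher and 0.0208% lower. Plagl1 was then at 0.03 (SE 0.31), with 1 read against 0, and Usp29 at -0.30 (SE 0.59).

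For NMN added to FK866 at the 4-cell stage, the header reading compares 2 single libraries, so its values compare those libraries, with a spread taken wholly from other columns. Plagl1 had 57 reads against 265, a log2 fold change of -2.003 (SE 0.43, adjusted p = 0.0237). Plagl1 entered the fit only through the library with 265 reads, so this difference is a description. So is the count of this fit, in which 1 of 7 members was lower and 0 higher, against 3.5% and 1.74% of all genes. Usp29 was at 2.10 (SE 0.84, adjusted p = 0.206) and Nnat at -3.29 (SE 1.03, adjusted p = 0.106). Nnat also entered the fit only through the column headed 4-cell FK866. Without late 2-cell FK866+NMN library A or B, neither in this comparison, its difference was the same and its SE was 0.572 or 0.548. The call of Plagl1 was lost with libraries centred on their median (-1.61, adjusted p = 0.417), where the calls over all genes went from 167 higher and 337 lower to 14 higher and 4 lower, and with a pseudocount of 0.1 (-2.67, adjusted p = 0.275). By the tables, 0 of 7 members were called and none had an unadjusted p below 0.05, with 0.0208% of all genes higher and 0.0% lower. Zrsr1 was at 0.47 (SE 0.83), Nnat at 0.60 (SE 0.73) and Plagl1 at 0.10 (SE 0.31).

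The library that carried the highest Plagl1, Nnat, Snrpn and Zrsr1 values also had markers of other cell types. In the column headed 4-cell FK866, fibroblast markers summed to 9.90 FPKM, with 2 of the 6 markers measured at 0, and cumulus or granulosa markers to 8.39, with 4 of 6 at 0. The late 2-cell controls had fibroblast sums of 0.540 and 4.52 and cumulus sums of 0 and 5.34. The column headed 4-cell FK866+NMN had a fibroblast sum of 10.1 with Plagl1 at 1.06 and Nnat at 0. Late 2-cell FK866+NMN library A had a fibroblast sum of 8.52 with Plagl1 and Nnat at 0. Whether such cells were in any library, and any part of them in the member values, was not tested.

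The members and their neighbours on the chromosome did not share 1 pattern. Blcap, whose gene surrounds Nnat and is expressed from the maternal copy in brain, was at 20.6 and 22.4 FPKM in FK866, 2.97 and 2.37 in late 2-cell control and 0 in both FK866+NMN libraries. It fell between FK866 and FK866+NMN by a log2 fold change of -4.49 (SE 0.71, adjusted p = 0.0129). Kcnq1, a potassium channel gene silenced on the paternal chromosome by Kcnq1ot1, fell from early to late 2-cell control (-1.63, adjusted p = 0.0426) and from FK866 (3.22 and 7.96 FPKM) to FK866+NMN (0 and 0; -2.62, adjusted p = 0.0213). Zim1, next to Peg3, was at 0.811 and 1.20 FPKM in early 2-cell and at 0 in both late 2-cell controls. Casd1, next to Sgce, did not pass 0.181 FPKM in any library. Copg2 was lower than late 2-cell control in the column headed TSA (-2.47, adjusted p = 0.0189), where Mest was at 0 and 0.0388 FPKM.

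**Figure D3:**
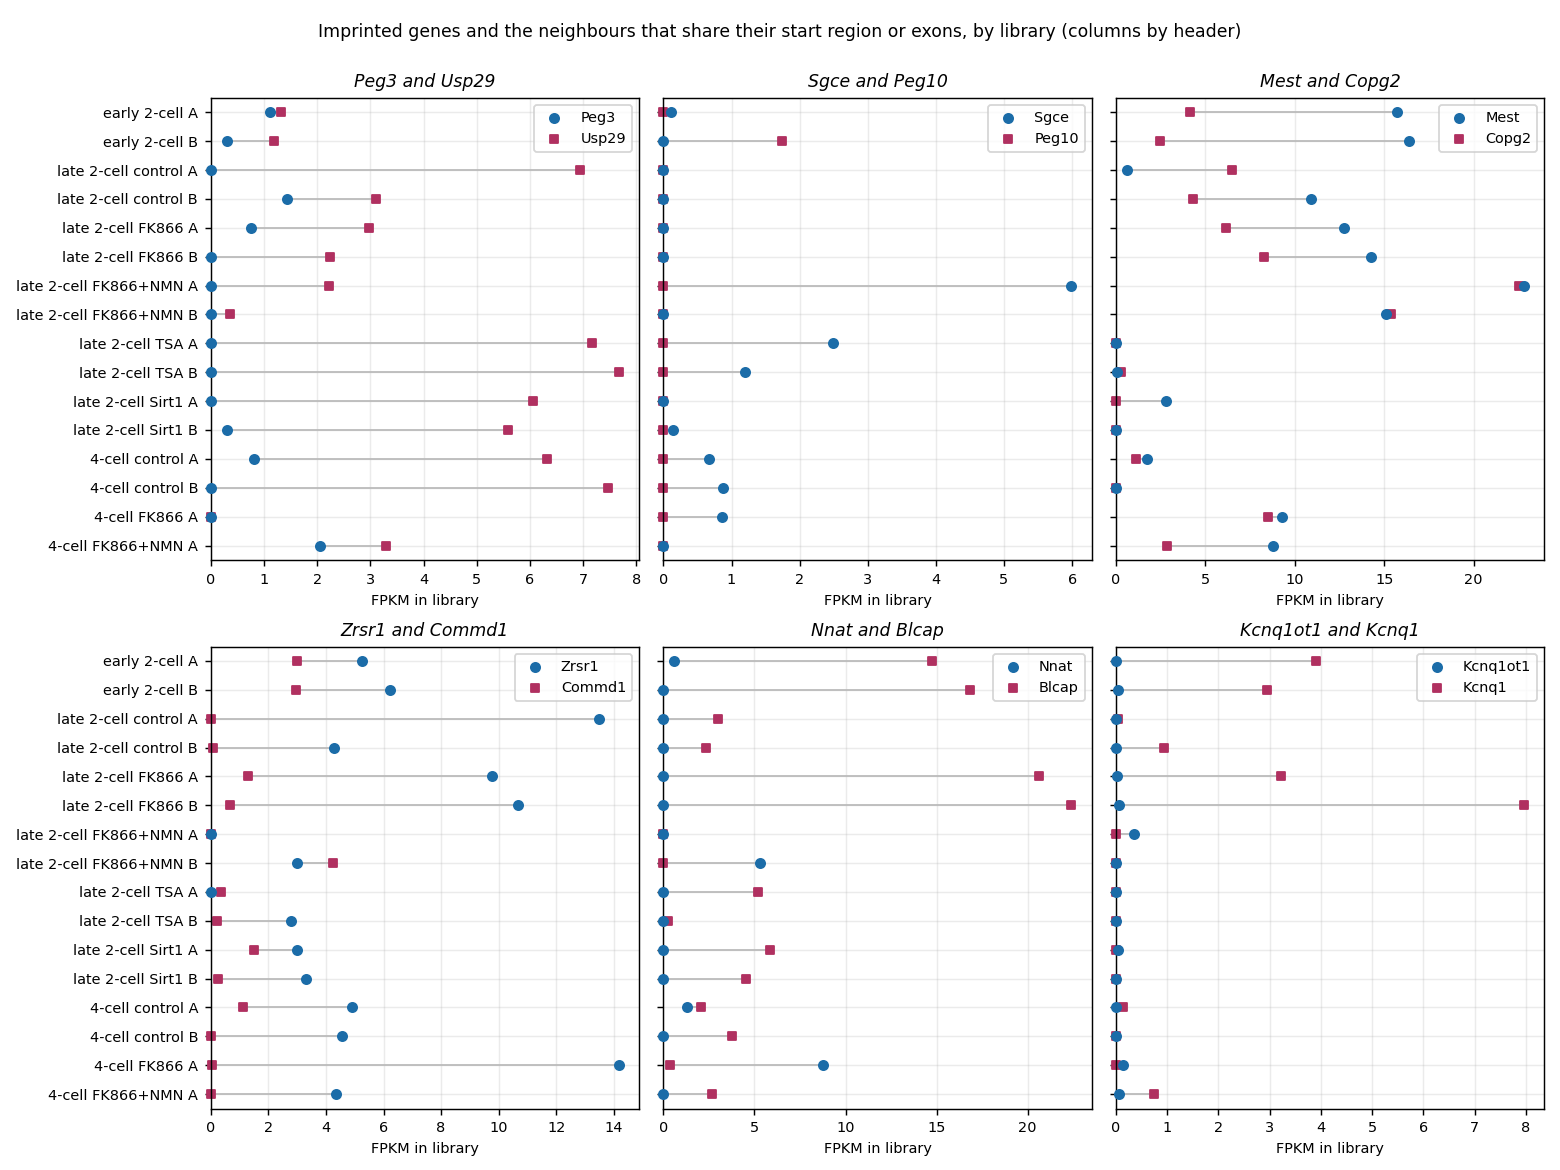
FPKM in each of 16 libraries (horizontal axis, linear; rows are libraries named by column header and letter) of an imprinted gene (blue circles) and of the neighbour that shares its start region or overlaps it (red squares), with a grey line joining the pair. Usp29 exceeds Peg3 in 15 libraries, no library has both Sgce and Peg10, and Mest and Copg2 lie close together in both FK866+NMN libraries, at 22.8 with 22.5 and 15.1 with 15.4 FPKM.

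Other imprinted genes, taken from lists by parental expression, gave the following counts. Of the 10 further paternally expressed genes in the table, 5 were fitted. Ndn, a neural growth suppressor of the Snrpn cluster, was the one called. It was at 7.69 FPKM in the column headed 4-cell FK866 and at 0 in both libraries of late 2-cell control and of the column headed 4-cell control. It was higher by a log2 fold change of 3.12 (SE 0.63) over either control, as 4-cell FK866 by header and as TSA by the tables. That is 1 of 5 fitted genes, against 13.6% and 5.11% of all genes higher. Without this single library Ndn was under the filter, so its value there is a description. Of 34 maternally expressed genes 21 were fitted, and from early to late 2-cell control Phlda2, a brake on placental growth, rose by 3.06 (adjusted p = 0.0132) and Kcnq1 fell. That is 1 of the 21 in each direction, against 9.27% of all genes higher and 6.93% lower. In FK866 over control at the late 2-cell stage, 0 of the 21 were called, against 0.135% of all genes higher and 0.0935% lower. By header, 5 of the 21 were lower and 0 higher in TSA and likewise in Sirt1 knockdown, among them Th (-4.61 and -4.09) and Asb4 (-3.75 and -3.47), against 9.05% and 6.78% of all genes lower. The 4-cell control had 3 lower by header and 5 by the tables, against 5.04% and 9.05% of all genes. Late 2-cell FK866+NMN over FK866 had 3 lower, against 1.95%. By header, 4-cell FK866 had 8 of the 21 higher and 1 lower, against 13.6% and 8.77% of all genes, led by Tfpi2 (5.44), Cdkn1c (4.60), Th (4.40) and Asb4 (3.98). By the tables, TSA had 2 higher, Tfpi2 (5.33) and H19 (3.76), from 1 library and against 5.11% of all genes higher. In 4-cell FK866 by the tables, 0 of the 21 were called, against 0.135% of all genes higher and 0.0208% lower. Without the library headed 4-cell FK866, Tfpi2 and H19 were under the filter, so their values in it are descriptions in either reading.

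Among 7 fitted genes whose paternal expression in early embryos is set by oocyte H3K27me3, Jade1 (2.91, adjusted p = 0.0300) rose and Matn1 (-1.78, adjusted p = 0.0289) fell from early to late 2-cell control. That is 1 of 7 in each direction, against 9.27% of all genes higher and 6.93% lower. In late 2-cell FK866 over control, 0 of the 7 were called, against 0.135% of all genes higher and 0.0935% lower. In TSA by the tables Gab1 (2.92) and Matn1 (2.48) were higher in the 1 library, against 5.11% of all genes. Gab1 was also called higher in TSA by header (2.62, adjusted p = 0.0220), against 4.6% of all genes. By header, the 1 library of 4-cell FK866 had Bmp7 (4.01) and Matn1 (3.53) higher, against 13.6%. Among 10 fitted factors that keep or erase imprints, Tet3, the oxidase of 5-methylcytosine in the zygote, fell from 47.9 and 50.0 FPKM in early 2-cell to 10.1 and 14.2 in late 2-cell control (-1.94, SE 0.56, adjusted p = 0.0395). Tet3 and the oocyte protein Nlrp2 were also the 2 of 10 lower in 4-cell over late 2-cell control in both readings and, by header, in TSA and in Sirt1 knockdown, against 5.04%, 9.05% and 6.78% of all genes lower by header. By header, the 1 library of 4-cell FK866 had 3 higher, Tet3 (3.83), Nlrp2 (3.62) and Dnmt3l (2.40), and 1 lower, Zfp445 (-3.02). The shares of all genes there were 13.6% higher and 8.77% lower. By the tables, 0 of the 10 were called in TSA, in Sirt1 knockdown or in 4-cell FK866. Of all genes, 5.11% were higher and 2.89% lower in TSA by the tables. The shares were 0.488% and 0.0935% in Sirt1 knockdown, and 0.135% and 0.0208% in 4-cell FK866. In late 2-cell FK866 over control 0 of the 10 were called, against 0.135% of all genes higher and 0.0935% lower.

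Genes most like the 3 highest members over the 9 column means were found by Pearson's r of log2(FPKM + 1), given as a description. Genes with a high r with Snrpn included Gm5590 (r = 0.944) and Mtpn (0.919). Mest was closest to Bhlhe40 (0.991), Gdap1 (0.991) and Pik3cd (0.988), and 473 of 9624 genes had an r of at least 0.9 with it. Zrsr1 was closest to 9230114K14Rik (0.945), Med13l (0.929) and Cntln (0.924), with 9 genes at an r of at least 0.9. The points are 9 columns that share libraries among all genes.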

How the data were processed

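Of the series, 18 RNA-seq samples in 9 groups were used, and 24 samples of H3K27ac CUT&Tag were not. The authors used Trim Galore for trimming, HISAT2 for alignment to mm10 and featureCounts for counting, and deposited FPKM values, 1 column per group. The submitters' processing notes also name CASAVA 1.4. The rows used here cover chromosomes 1 to 11. FPKM times the exon length of GENCODE M21 was solved for whole reads of 1 or 2 libraries per column, and between 96.8% and 97.8% of the values above 0 in a column were separated. The separation and the fit were tested on simulated data. limma with a trend was fitted over 16 libraries in 9 column groups (7 residual degrees of freedom) on log2(FPKM + 1), with p-values adjusted over 9625 genes. Gene positions are those of GENCODE M21 on GRCm38, and start windows and CpG counts come from RefSeq. The 10 members, the gene lists and the tests were chosen with earlier results of these data known. Alternatives were pseudocounts of 0.1 and 5, no filter, a mean of at least 5 FPKM, centring on the median, the compared columns alone, each of the 14 libraries of columns with 2 left out, columns by the published tables, and whole-column folds past 2-fold. List genes are named where they passed the test, at most 5 per list and comparison by size of change, and neighbours where they overlap or adjoin a member. Of the genes picked by likeness, a single one is not reported here. Software: limma 3.58.1 in R 4.3.3, and pandas 2.3.3, numpy 2.4.6, scipy 1.17.1 and matplotlib 3.10.9 in Python 3.11.15.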

Additional observations from a re-analysis of the deposited data

Results flagged for a closer look

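By header, the FK866 effect on Plagl1 was larger at the 4-cell than at the late 2-cell stage by a log2 difference of 2.92 (SE 0.48, interaction term of the limma fit, adjusted p = 0.00563), and 922 of 9625 genes passed the same test. All 4 late 2-cell libraries were at 0 and the 4-cell FK866 column was the single library through which Plagl1 entered the fit, so the difference describes that library. With columns by the published tables the difference was 0.03 (SE 0.43) and 0 genes passed. Dixon's test of a sample far from the others could not be applied, since no column holds 4 libraries.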

How the results depend on the processing

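No paired analysis was possible because the columns carry no replicate number. Counts are of the 7 fitted members called, and the cause of each change was not tested beyond what its construction shows. A mean of at least 5 FPKM left out Plagl1, Usp29, Sgce and Nnat, so early to late 2-cell lower, 4-cell FK866 higher and lower, and 4-cell FK866+NMN over FK866 lower each gave 0. With libraries centred on their median, the all-gene median (log2 fold change) ran from -0.69 (4-cell FK866) to 1.07 (FK866+NMN over FK866), against -0.29 to 0 without it. Centring gave 0 lower from early to late 2-cell, 1 higher in FK866+NMN over late 2-cell control, 0 higher in 4-cell FK866 and 0 lower in 4-cell FK866+NMN over FK866. A pseudocount of 5 added Nnat to 4-cell FK866 (2 higher; 1.29, adjusted p = 0.0175) and to 4-cell FK866+NMN over FK866 (2 lower; -1.46, adjusted p = 0.0477), and a pseudocount of 0.1 gave 0 lower in the latter. The compared columns alone gave 0 higher and 0 lower in 4-cell FK866. Columns by the published tables gave 2 higher in TSA, 0 higher and 0 lower in 4-cell FK866 and 0 lower in 4-cell FK866+NMN over FK866, and reversed Mest (1.22) and Zrsr1 (0.80) in TSA and Plagl1 (0.10) and Nnat (0.60) in 4-cell FK866+NMN over FK866. In that reading without a filter, an alternative chosen after seeing the data, TSA had 1 higher and 1 lower, with Nnat at an adjusted p of 0.0674 and Usp29 at 0.0473.

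Leaving out 1 library at a time, members lower from early to late 2-cell numbered 1 to 2. Each direction of FK866+NMN over FK866, FK866+NMN over control and TSA gave 0 to 1. 4-cell FK866 gave 1 to 2 higher and 0 to 1 lower, and 4-cell FK866+NMN over FK866 gave 1 to 2 lower. By the tables, a choice of leave-outs made after seeing the data, the 4-cell control gave 0 to 1 in each direction, TSA 1 to 2 higher and 0 to 1 lower, and Sirt1 0 to 1 higher. The other counts remained at 0. Plagl1 was called in all 14 such fits from early to late 2-cell (adjusted p = 0.00369 to 0.0250). The single libraries of 2 columns could not be left out, so these fits say nothing of the stability of the values that rest on them. A call that appears only when 1 library of a compared group is left out rests on the library kept. A call that appears only without libraries outside the comparison comes with an unchanged difference. Without replicates or a test, whole columns past 2-fold gave 1 higher and 2 lower from early to late 2-cell, 1 lower in 4-cell control, 1 higher in FK866, 2 higher and 1 lower in FK866+NMN over FK866, 3 higher and 2 lower in FK866+NMN over control, 1 higher and 2 lower in TSA, 2 lower in Sirt1, 4 higher and 1 lower in 4-cell FK866, and 1 higher and 3 lower in 4-cell FK866+NMN over FK866. Depth limits Nnat and Peg10, with 146 and 54 reads in all libraries together.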
